A study of Homo sapiens with 15 samples.

Results

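The aldo-keto reductases are a family of soluble enzymes that use NADPH to reduce aldehydes and ketones to alcohols. The family was followed here in PE/CA-PJ41 cells, an established human oral squamous cell carcinoma line. Its members were taken as every non-control probe of the array whose RefSeq accession belongs to AKR1A1, AKR1B1, AKR1B10, AKR1C1, AKR1C2, AKR1C3, AKR1C4, AKR1E2, AKR7A2 or AKR7A3. This gave 12 of the 42405 distinct probes and 9 of the 10 genes. AKR1C2 was not analysed here, because no probe carried its accession. Of the 12 probes, 9 probes of 7 genes were well above background on at least 6 of the 15 arrays and were tested among 22328 probes, and the 3 probes of AKR1C4 and AKR1E2 were not.

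The cells compared were NCE cells, labelled as carrying an empty transfection vector, and CYGB+ cells, which carried the pCMV6-Neo plasmid with the cDNA of human cytoglobin, a haem globin. CYGB+ cells were a stable clone, LST421, picked with a cloning ring in G418, so the clone and the transgene cannot be told apart. The study's paper also calls the NCE control un-transfected, and which of these holds was not tested. Both groups were grown in RPMI1640 with foetal bovine serum and held for 24 h in supplemented medium before RNA was extracted on separate occasions. Each group had 3 biological replicates, hybridised to 3 arrays each for NCE (9 arrays) and to 2 arrays each for CYGB+ (6 arrays), and the arrays of a replicate were averaged. P-values then measure the spread between the 3 extractions of each line.

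Members of the family differ in what they reduce. The AKR1C enzymes are hydroxysteroid dehydrogenases: AKR1C1 inactivates progesterone, AKR1C2 acts on dihydrotestosterone, AKR1C3 makes testosterone and prostaglandin F, and AKR1C4 is a liver enzyme of bile acid and steroid metabolism. AKR1B1 is aldose reductase and AKR1B10 a retinal reductase known from smokers' airway epithelium and squamous tumours. AKR1A1 is the general aldehyde reductase, AKR7A2 and AKR7A3 reduce aflatoxin dialdehyde, with AKR7A2 also known as succinic semialdehyde reductase, and AKR1E2 reduces anhydrofructose. Several of these genes are known targets of the transcription factor NRF2, which binds antioxidant response elements and is held in check by KEAP1.

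The promoters of AKR1C1, AKR1C2 and AKR1C3 are shown because AKR1C1 and AKR1C3 were the members whose signal rose, and because AKR1C2, without a probe, lies close to AKR1C1 in sequence. The sequences are from RefSeq (GRCh38.p14), 5′ to 3′, each 300 bases, from 250 bases before to 50 after the transcript start. Capitals mark matches to the core of the antioxidant response element, searched as TGACNNNGC or TGAGNNNGC on both strands, and to the CCAAT box, searched as CCAAT on both strands.
AKR1C1 promoter, chr10:4963165-4963464 (plus strand): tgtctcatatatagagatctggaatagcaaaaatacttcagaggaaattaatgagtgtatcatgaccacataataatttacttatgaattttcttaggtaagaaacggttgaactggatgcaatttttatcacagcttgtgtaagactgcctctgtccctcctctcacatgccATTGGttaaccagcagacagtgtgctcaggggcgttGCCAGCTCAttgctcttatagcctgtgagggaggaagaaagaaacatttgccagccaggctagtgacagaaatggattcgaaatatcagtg
AKR1C2 promoter, chr10:5003808-5004107 (minus strand): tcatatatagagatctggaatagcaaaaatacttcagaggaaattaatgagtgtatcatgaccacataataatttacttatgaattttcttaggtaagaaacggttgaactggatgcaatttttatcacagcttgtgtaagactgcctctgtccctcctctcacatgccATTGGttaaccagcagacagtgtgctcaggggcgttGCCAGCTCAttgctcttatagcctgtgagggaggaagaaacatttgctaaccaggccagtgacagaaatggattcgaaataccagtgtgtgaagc
AKR1C3 promoter, chr10:5048531-5048830 (plus strand): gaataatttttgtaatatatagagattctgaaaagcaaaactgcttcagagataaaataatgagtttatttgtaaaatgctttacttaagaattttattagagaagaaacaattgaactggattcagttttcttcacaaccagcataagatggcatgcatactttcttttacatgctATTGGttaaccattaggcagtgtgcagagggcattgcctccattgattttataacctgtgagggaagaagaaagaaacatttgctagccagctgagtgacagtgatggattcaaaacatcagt
The AKR1C1 promoter aligned to that of AKR1C2 with 93.5% identical positions and to this AKR1C3 promoter with 74.6%. AKR1C3 has another promoter entry, chr10:5094164-5094463 (plus strand), which is not shown. It aligned to AKR1C1 with 71.6% and holds 1 CCAAT box. Which of the AKR1C3 starts gives the transcript read by the probe was not tested. AKR1C1 and AKR1C2 hold the same match, GCCAGCTCA, to the antioxidant response element core, which starts at position -41 of AKR1C1 and -45 of AKR1C2. Neither AKR1C3 window holds a match to this core. The core is not particular to the members that rose, since AKR7A2 holds 3 matches and AKR7A3 holds 1. All of the 3 windows shown hold 1 CCAAT box on the complementary strand, read as ATTGG on the strand shown. The window of AKR1C4, which is not shown, holds neither the core nor a CCAAT box. Over all 35116 promoters of the same length, 29.1% hold the antioxidant response element core and 34.6% hold a CCAAT box, so either match is frequent. The coding sequences of AKR1C1 and AKR1C2 are known to be nearly identical, and whether the AKR1C1 probes separate the transcripts was not tested.

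The gene named in the design did not separate the groups. The CYGB probe (A_33_P3285868) was well above background on 15 of 15 arrays, with log2 signals of 12.87, 13.16 and 12.94 in NCE replicates 1 to 3 and of 12.37, 13.45 and 13.00 in CYGB+ replicates 1 to 3. The groups overlapped, and the difference (CYGB+ minus NCE) was -0.05 (SE 0.28, 95% interval -0.69 to 0.60, limma adjusted p = 0.93). Where this probe lies relative to the transfected cDNA is not given in the sources used here, so the groups below are those labelled NCE and CYGB+, and each direction rests on the labels. The labels give the green dye, Cy3, for every sample, whereas the study's methods give Cy5 for control cells, and the green channel was read on all arrays. The squamous identity of the cells was plain: 10 of 10 squamous epithelial markers, among them KRT5, KRT14, TP63 and SFN, passed the background filter. Of the defining markers of other cells, PTPRC, CD3E, PECAM1, VWF, KDR, DCN, LUM, PDGFRB and COL3A1 did not, LYZ had no probe by accession, and CD14, CDH5, COL1A1 and COL1A2 passed. Of the 14 markers tested among 25, KRT16 (difference -0.75) and COL1A2 (-2.54), a collagen chain, fell, and none rose. Their part in the results below was not tested. In RNA from a whole culture, fewer cells of a type and less RNA per cell cannot be told apart.

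Each array had between 48.9% and 57.3% of its probes well above background. All 6 CYGB+ arrays and 1 NCE array (replicate 1, array 3) shared a slide, and the other 8 NCE arrays shared another slide, with which the scan coincided. The first array of CYGB+ replicate 1 stood apart, with a median correlation of 0.906 with the other arrays. The second array of NCE replicate 3 was the lowest of its group at 0.952, close to the 0.960 to 0.978 of the others. No member probe was flagged as an outlier spot or saturated on any array.

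Transcripts of the AKR1C steroid dehydrogenases were the members that rose in CYGB+ cells. AKR1C1 was 3.68-fold higher by the probe that passed the test and AKR1C3 was 2.76-fold higher, while AKR1B1, AKR1B10, AKR1A1, AKR7A2 and AKR7A3 did not pass it. In all, 2 of the 9 tested probes rose and 0 fell at an adjusted p under 0.05, beside 4.24% of all 22328 tested probes called higher and 4.05% called lower, or 8.29% in either direction. At an unadjusted p under 0.05 there were 4 of 9, beside 26.9% of all tested probes. With 1 probe a gene, that of the highest mean signal, 1 of the 7 genes (AKR1C3) rose, 0 fell and 6 did not pass. The AKR1C1 probe that stands there, A_23_P257971, missed the threshold (limma adjusted p = 0.0515). Over these 7 genes the median difference was 0.24, beside -0.02 over all tested probes.

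**Figure D1:**
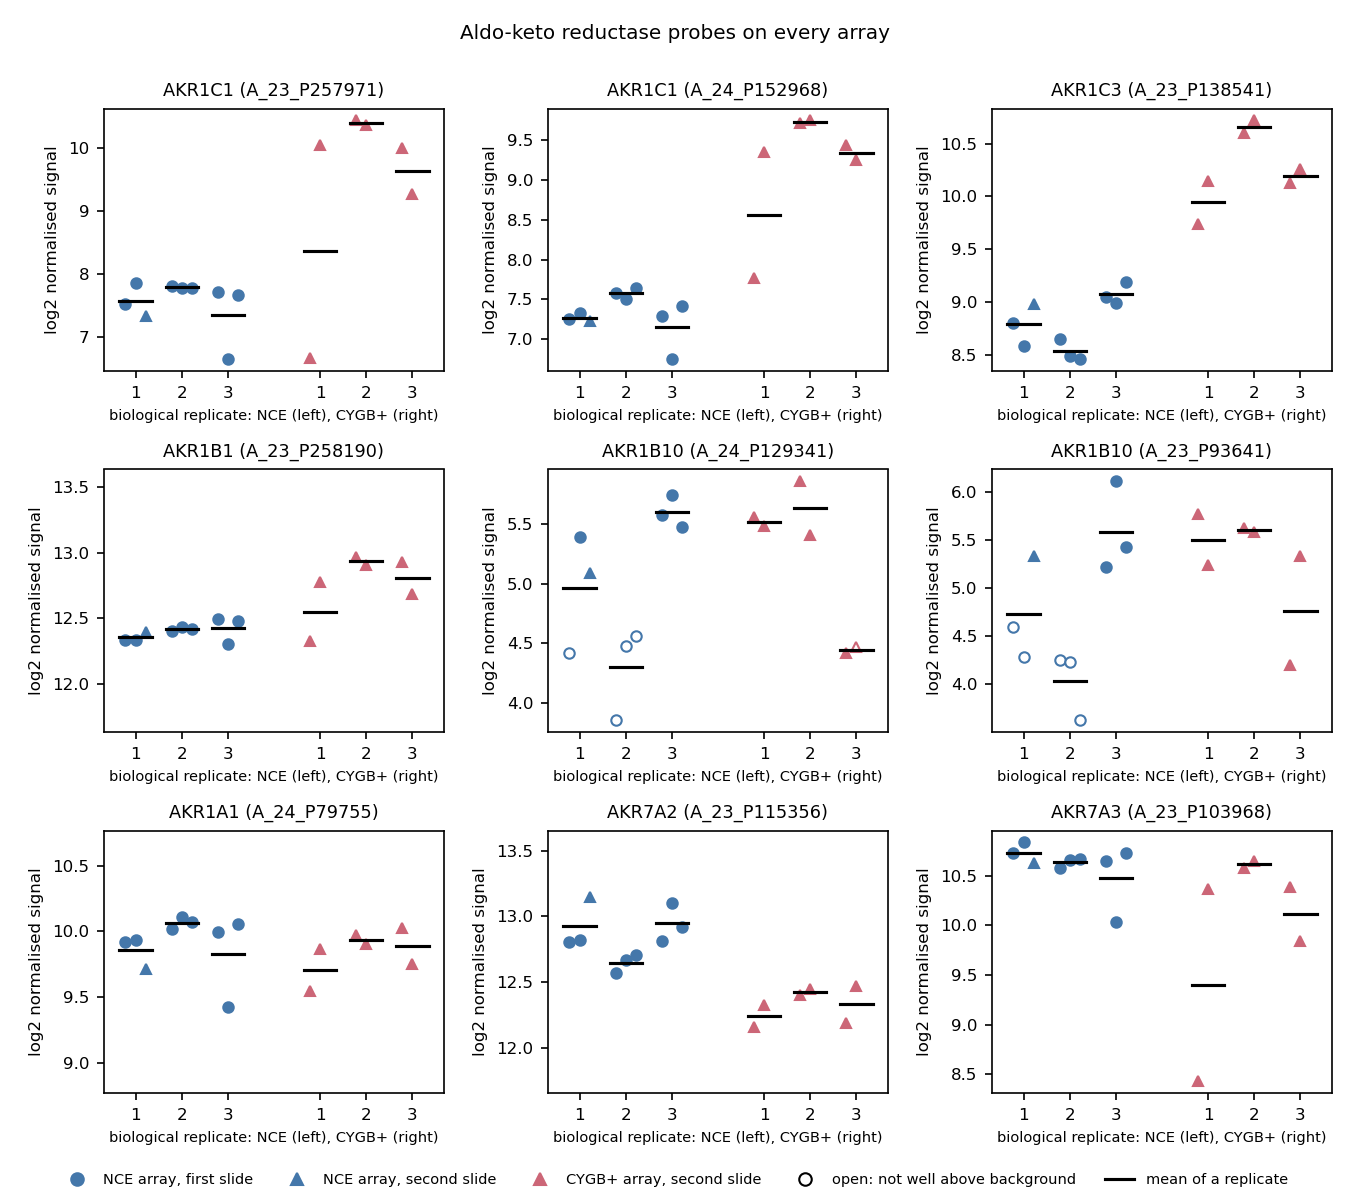
Log2 normalised signal (vertical axes) of the 9 tested aldo-keto reductase probes on every array, by biological replicate of NCE (blue) and CYGB+ (red), with circles for the first slide, triangles for the second, open points for spots not well above background and black lines for replicate means. For AKR1C3 and for AKR1C1 probe A_24_P152968 the 6 CYGB+ arrays lie above all 9 NCE arrays, for AKR7A2 they lie below them, and for AKR1B10 the groups mix.

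AKR1C1, the dehydrogenase that inactivates progesterone, had 2 probes. With probe A_24_P152968 the NCE replicates 1 to 3 read 7.27, 7.58 and 7.15 on the log2 scale and the CYGB+ replicates 8.56, 9.73 and 9.34. Every CYGB+ replicate lay above every NCE replicate, and so did every array, from 6.75 to 7.65 on the 9 NCE arrays and from 7.77 to 9.75 on the 6 CYGB+ arrays. The difference was 1.88 (SE 0.30, 95% interval 1.17 to 2.59), or 3.68-fold (2.25 to 6.02), with a limma adjusted p of 0.0146. Without NCE replicate 1, 2 or 3 the adjusted p was 0.0537, 0.0527 and 0.062, with differences of 1.85, 2.00 and 1.79. A difference of this size or larger was found for 0.864% of all tested probes.

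The other AKR1C1 probe, A_23_P257971, gave the same size of difference with more scatter. NCE replicates 1 to 3 read 7.57, 7.79 and 7.34, and CYGB+ replicates 8.36, 10.41 and 9.64. The replicates again did not overlap, but the arrays did: the first array of CYGB+ replicate 1, which stands apart from the other arrays, read 6.65, against 9.27 to 10.44 on the other 5 CYGB+ arrays. The difference was 1.90 (SE 0.47, 95% interval 0.80 to 3.01), and its limma adjusted p of 0.0515 missed the threshold. With the replicate number as a block the adjusted p was 0.0256, beside 11.2% of all probes called. Without the array of lowest correlation in each group the difference was 2.35 with an adjusted p of 0.00149, beside 17.3% of all probes called. Across the 15 arrays the AKR1C1 probes correlated at r = 0.951, and at r = 0.974 after the group means were taken out, as a description of arrays that share replicates and slides.

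AKR1C3, the enzyme that makes testosterone and prostaglandin F, rose with less spread. NCE replicates 1 to 3 read 8.79, 8.53 and 9.08 and CYGB+ replicates 9.94, 10.66 and 10.19. The arrays did not overlap either, with 8.46 to 9.19 in NCE and 9.74 to 10.72 in CYGB+. The difference was 1.47 (SE 0.24, 95% interval 0.91 to 2.02), or 2.76-fold (1.88 to 4.06), with a limma adjusted p of 0.0146. Without NCE replicate 1 or 2 it was 1.46 and 1.33, and the adjusted p of 0.0535 and 0.0689 missed the threshold. Within the groups AKR1C3 followed AKR1C1 less closely than the AKR1C1 probes followed each other (r = 0.415 and 0.456 over 15 arrays, group means removed).

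The slide on which an array lay moved with the group, and a single NCE array lay on the slide of the CYGB+ arrays. That array read 7.23 and 7.33 with the AKR1C1 probes A_24_P152968 and A_23_P257971 and 8.98 with AKR1C3, each within the range of the NCE arrays of the other slide. Within that slide alone the AKR1C1 differences were 1.98 and 2.14 and that of AKR1C3 was 1.29, as large or nearly as large as over all arrays, with adjusted p of 0.28, 0.42 and 0.35. Only 0.0896% of all probes passed in that comparison, which has a lone NCE array. With the slide as a term, the difference was 1.97 for A_24_P152968 (adjusted p = 0.062), 2.17 for A_23_P257971 (adjusted p = 0.364) and 1.26 for AKR1C3 (adjusted p = 0.038), beside 2.95% of all probes called. This fit was over single arrays under a random block for the replicate, and its group term rested on the same lone NCE array. Its p-values are therefore not those of 3 against 3 replicates.

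AKR1C4 was not detected. Its probes A_33_P3272291 and A_23_P149926 were not well above background on any of the 15 arrays, and so no fold is given. AKR1E2 (A_33_P3480561) was well above background on 1 of 9 NCE arrays, at 5.53, and on 0 of 6 CYGB+ arrays. The replicates overlapped and the array medians were 2.33 in NCE and 2.38 in CYGB+, so no fold is given here either. These genes add no difference that could be tested.

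AKR1B1 is aldose reductase, which reduces glucose to sorbitol. NCE replicates 1 to 3 read 12.35, 12.42 and 12.42 and CYGB+ replicates 12.55, 12.94 and 12.81. The replicates did not overlap, but the arrays did, since the first array of CYGB+ replicate 1 read 12.32. The difference of 0.37 (SE 0.16, 95% interval -0.01 to 0.75) did not pass the test (limma adjusted p = 0.198). Without the array of lowest correlation in each group it was 0.42, with an adjusted p of 0.0487, beside 17.3% of all probes called. With the deposited value table it was 0.59 (limma adjusted p = 0.0488), beside 9.61% called. AKR1B1 passed in 3 of the 20 other settings.

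AKR1B10, the retinal reductase, was at the edge of detection. Its probe A_24_P129341 was well above background on 5 of 9 NCE and 5 of 6 CYGB+ arrays, and its probe A_23_P93641 on 4 of 9 and 6 of 6. With the first, NCE replicates 1 to 3 read 4.96, 4.30 and 5.60 and CYGB+ replicates 5.52, 5.63 and 4.44, and with the other 4.74, 4.04 and 5.59 against 5.51, 5.61 and 4.77. Replicates within a group differed by more than the groups did. The differences of 0.24 (95% interval -0.73 to 1.21, limma adjusted p = 0.747) and 0.51 (-0.45 to 1.46, adjusted p = 0.468) have intervals that include changes of either sign.

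AKR1A1, the general aldehyde reductase, read 9.86, 10.07 and 9.83 in NCE replicates 1 to 3 and 9.70, 9.94 and 9.89 in CYGB+. The groups overlapped. Its difference of -0.07 had the narrowest interval of the members, from -0.44 to 0.29 (SE 0.16, limma adjusted p = 0.804), which lies below the interval of AKR1C3.

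The AKR7A genes had lower values in CYGB+ cells, and neither passed the test. AKR7A2, which reduces succinic semialdehyde, had a probe that was spotted 10 times on each array. NCE replicates 1 to 3 read 12.92, 12.65 and 12.95 and CYGB+ replicates 12.24, 12.43 and 12.33. Neither replicates nor arrays overlapped, from 12.57 to 13.15 on NCE arrays and from 12.16 to 12.47 on CYGB+ arrays. The difference was -0.51 (SE 0.16, 95% interval -0.88 to -0.13), or 0.704-fold, with a limma adjusted p of 0.0947. The NCE array on the slide of the CYGB+ arrays read 13.15, and the difference was -0.82 within that slide. With slide as a term, a fit over single arrays, it was -0.81 (adjusted p = 0.032), beside 2.95% of all probes called. Both of these differences rest on that NCE array, which read the highest of all NCE arrays. Over the 20 other settings the AKR7A2 difference ran from -0.82 to -0.36, and it passed in 2 of them.

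AKR7A3, the aflatoxin aldehyde reductase, read 10.73, 10.63 and 10.47 in NCE replicates 1 to 3 and 9.40, 10.61 and 10.11 in CYGB+. The groups overlapped, and the lowest value belonged to the array of CYGB+ replicate 1 that stood apart (8.43, against 9.84 to 10.65 on the other 5). The difference was -0.57 (SE 0.30, 95% interval -1.27 to 0.13, limma adjusted p = 0.269), and -0.32 without the array of lowest correlation in each group. With group means removed, AKR7A3 followed AKR1C1 across arrays (r = 0.985 with A_23_P257971 and 0.947 with A_24_P152968), and over all 15 arrays it did not (r = 0.24 and -0.05). The array of lowest correlation in each group is low for both genes in its group.

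Counted by replicates, 4 of the 9 tested probes lay wholly higher in CYGB+ (AKR1B1, AKR1C3 and both of AKR1C1), beside 16% of all tested probes. AKR7A2 alone lay wholly lower, beside 17.1%, and 4 probes overlapped. In either direction the share of all tested probes was 33.1%.

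**Figure D2:**
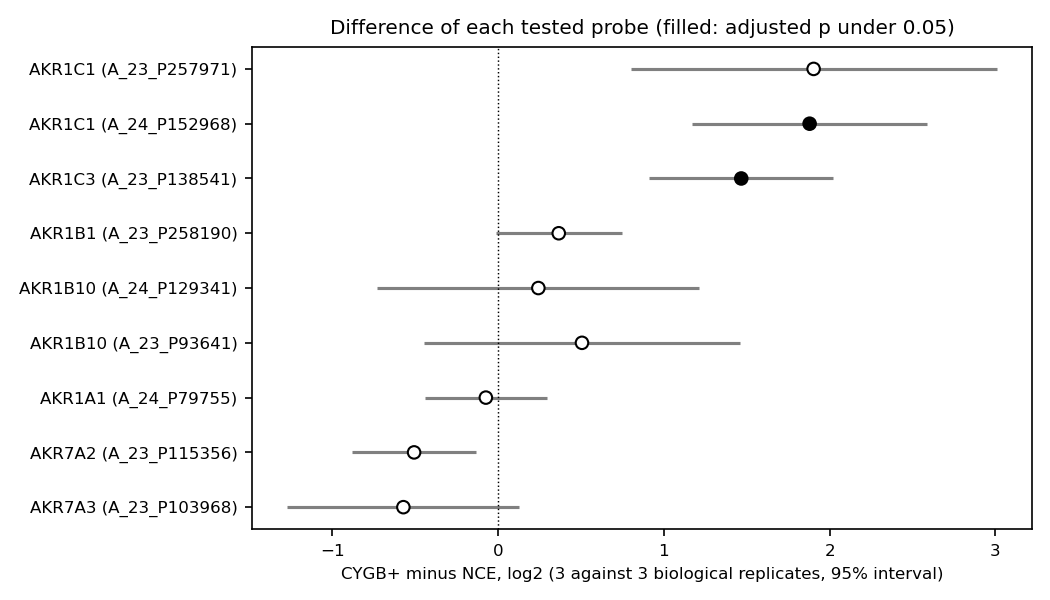
Difference of each tested probe (horizontal axis, CYGB+ minus NCE on the log2 scale, 3 against 3 biological replicates) with its 95% interval, filled where the adjusted p is under 0.05. AKR1C1 and AKR1C3 lie between 1.47 and 1.90, and the other genes between -0.57 and 0.51.

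**Figure D3:**
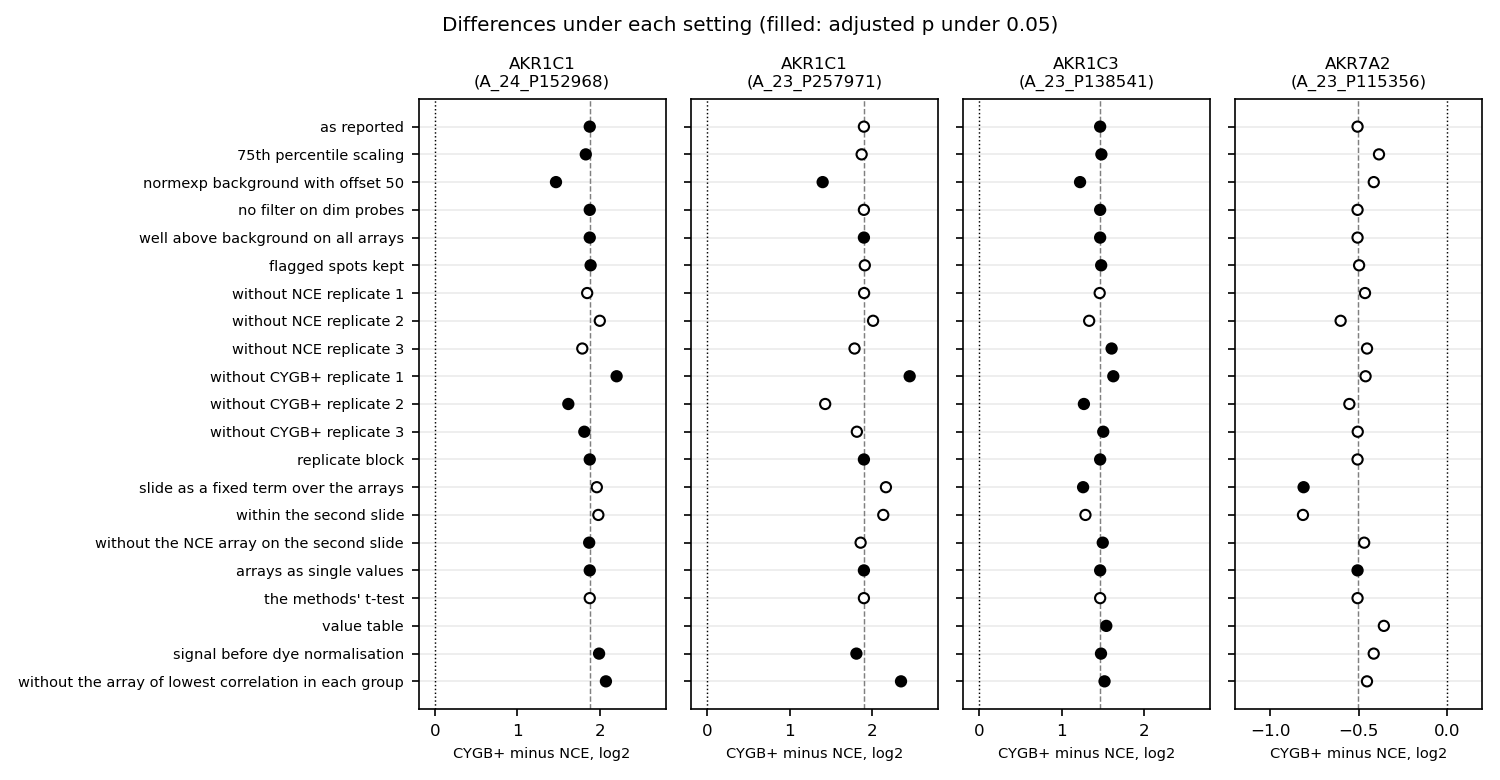
Difference (CYGB+ minus NCE, log2) of the AKR1C1, AKR1C3 and AKR7A2 probes under those of the 21 settings that gave it a value, filled where the adjusted p is under 0.05. AKR1C3 stays between 1.22 and 1.63, AKR1C1 between 1.40 and 2.46 and AKR7A2 between -0.82 and -0.36, and filled and open points occur for each of these probes.

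Of the superfamily outside these members, AKR1B15, AKR1D1, AKR1C8P, AKR7L, KCNAB1, KCNAB2 and KCNAB3 were followed. Of these 7 genes, 6 were on the array, and KCNAB2, a potassium channel beta subunit, was the 1 that was tested, with a difference of -0.48 (adjusted p = 0.232), and 0 of 1 was called.

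Genes of the NRF2 battery, which share a regulator with several members, moved in both directions. Of 24 tested genes, 5 rose, 3 fell and 16 did not pass, beside 4.24% of all tested probes called higher and 4.05% called lower, and the median difference was 0.38, beside -0.02 over all tested probes. The risers were HMOX1, which degrades haem (1.37, SE 0.18), TXNRD1, thioredoxin reductase (1.22, SE 0.14), NQO1, a quinone reductase (1.22, SE 0.17), ABCC3, a conjugate exporter (1.13, SE 0.17), and PGD, a pentose phosphate enzyme (0.84, SE 0.18, named after its value was seen). Those that fell were GPX2, a glutathione peroxidase (-1.26, SE 0.25), CBR1, a carbonyl reductase (-1.10, SE 0.19), and TALDO1, transaldolase (-0.81, SE 0.17). NFE2L2, the gene of NRF2 itself, was well above background on 1 of 15 arrays and was not tested, and KEAP1 had a difference of 0.09 (adjusted p = 0.743). The differences of HMOX1, TXNRD1, NQO1 and ABCC3 lay within the interval of that of AKR1C3, and CBR1, which like the aldo-keto reductases reduces carbonyls with NADPH, went the other way. Against 8 calls with all replicates, there were 4 without NCE replicate 1, 2 without NCE replicate 2, 3 without NCE replicate 3 and 5 without CYGB+ replicate 3.

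**Figure D4:**
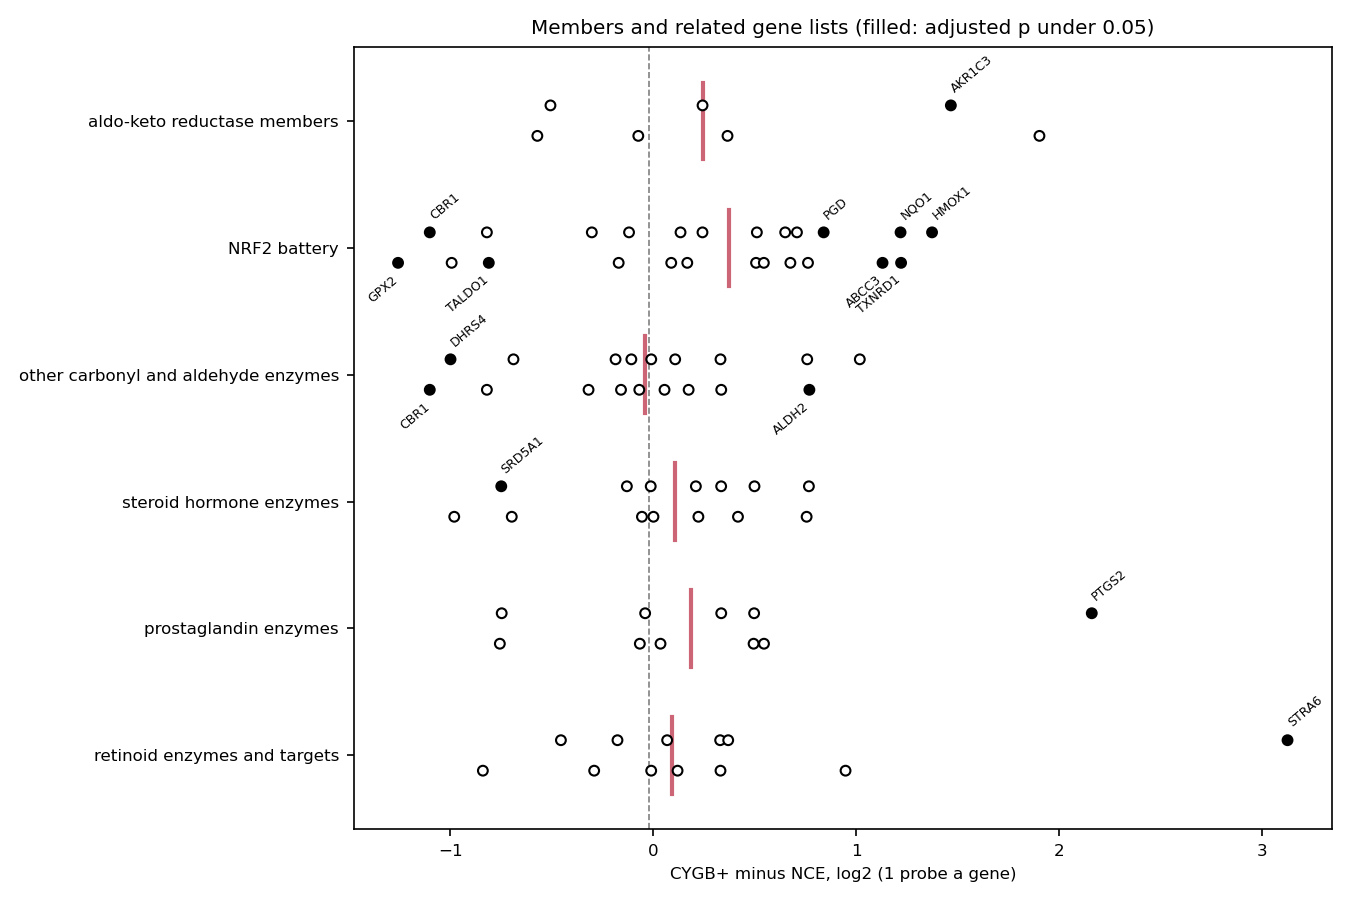
Difference of each tested gene (horizontal axis, CYGB+ minus NCE on the log2 scale, 1 probe a gene) for the aldo-keto reductases and 5 related lists, filled and named where the adjusted p is under 0.05, with red bars at list medians and a dashed line at the median of all tested probes. The NRF2 battery has 5 genes called higher and 3 called lower, and its median of 0.38 is the highest of these lists.

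Other enzymes of carbonyls and aldehydes had 1 riser, ALDH2, the mitochondrial acetaldehyde dehydrogenase (0.77, SE 0.19, adjusted p = 0.0496), and 2 that fell, CBR1 and DHRS4, a retinal and ketone reductase (-0.998, SE 0.20, with the same sign and call in its other probes). The remaining 15 of 18 did not pass, beside 8.29% of all tested probes called, and the median was -0.04. With the replicate block ALDH2 did not pass (adjusted p = 0.0625). Of 19 other settings it passed in 3, with differences from 0.40 to 0.89, so its call depends on the setting. For ALDH7A1 the probe that stood for it gave -0.19 (adjusted p = 0.586) and another 0.80 (adjusted p = 0.0364), so its direction depends on the probe.

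The pathways the AKR1C enzymes serve had 1 call each, beside 8.29% of all tested probes, a share too close to read as a result about these lists. Among steroid hormone enzymes SRD5A1, a steroid reductase that makes dihydrotestosterone, fell (-0.75, SE 0.17, adjusted p = 0.0434, and 0.050 with the replicate block, which no longer passed), 0 rose and 13 of 14 did not pass, with a median of 0.11. Among prostaglandin enzymes PTGS2, the inducible cyclooxygenase, rose (2.16, SE 0.43, adjusted p = 0.0289), 0 fell and 9 of 10 did not pass, with a median of 0.19. Among retinoid enzymes and targets STRA6, the membrane receptor that takes up retinol, rose (3.13, SE 0.51, adjusted p = 0.0152) with both of its probes, 0 fell and 11 of 12 did not pass, with a median of 0.09. The probe that stood for STRA6 had a mean of 7.34 in CYGB+ but of 4.21 in NCE, as low as AKR1B10 at the edge of detection. The size of its difference is therefore uncertain, and over 18 other settings it ran from 1.06 to 3.45.

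The genes most like AKR1C1 were sought among 12878 non-member genes by the Pearson correlation with its probe A_23_P257971 over the 15 arrays. They were CORO2B (r = 0.983), SLC75A1 (0.980), MRPL20 (0.980), HARS1 (0.975) and GALNS (0.973), with differences from 0.33 to 0.90, and 0 of these 5 passed the test. For AKR1B10 they were NME3 (0.784), TP63 (0.772), LRRC75B (0.764), ZNF750 (0.753) and FBLIM1 (0.746). These correlations describe arrays that share replicates and slides and include the array that stood apart.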

How the data were processed

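RNA of 6 biological replicates was measured on 15 arrays of an Agilent whole-genome design (SurePrint G3, probes annotated to hg19). The authors' files are scanner output of Agilent Feature Extraction 10.7.3.1 (protocol GE2_107_Sep09), in which the deposited intensity is per spot and per channel. Per the labels every sample was labelled with Cy3, so the green channel was used. The study's methods give Cy5 for control cells, and the deposited value table followed green on all arrays (median r = 0.998 over pairs of arrays, against 0.533 for red). The deposited green intensity had been dye-normalised by the scanner software.

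Log2 of the processed green signal was quantile-normalised over the 15 arrays, with spots flagged as outliers left out. Spots of a probe and then arrays of a replicate were averaged. Probes well above background on at least 6 arrays were tested with limma 3.58.1 (lmFit, eBayes) in R 4.3.3, 3 against 3 replicates, with Benjamini-Hochberg adjustment over all 22328 probes and a threshold of 0.05. Probe positions were not used. The number of arrays limits the precision. The fit was tested on simulated data.

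The deposited value table holds natural log values (slope 0.692 per log2 unit of green), centred for each probe on the median of the CYGB+ arrays, with column medians from -0.16 to 0.18. The study's methods name quantile normalisation, and whether the table's arrays were scaled in that way before centring was not tested. It served as an alternative and holds 15031 of these probes. The normexp alternative started from median signals, because no mean signal was found in the files.

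Same-numbered replicates of the groups deviated together (r = 0.218, 0.278 and 0.314). Different-numbered ones ranged from -0.498 to 0.225, and NCE replicate 2 with CYGB+ replicate 3 (0.225) exceeded the lowest same-numbered value. These values therefore do not settle whether the numbers pair the samples. On this ground alone the numbers were used as pairs in an alternative fit, the replicate block, while the main fit was unpaired. The members and lists were chosen with earlier results of these data known. Of a gene with several probes, the tested probe with the highest mean signal stood for it in the lists. All member probes, CYGB, NFE2L2 and KEAP1 were named whatever their values, from other lists up to 4 called genes a direction by size of difference, and the 5 genes most like AKR1C1 and AKR1B10. Gene names came through RefSeq accessions and symbols (25422 of 42405 probes), and promoters were matched for 9 of the 10 members, with none given for AKR1B10. Probe sequences were not analysed here.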

Additional observations from a re-analysis of the deposited data

Results flagged for a closer look

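Single arrays lay far from the others of their group for 7 of 18 group and probe pairs. The pairs share arrays, so this count cannot be set against the 1 in 20 of independent pairs. For AKR1C1 the second array of NCE replicate 3 read 6.64 with probe A_23_P257971 and 6.75 with A_24_P152968, and the first array of CYGB+ replicate 1 read 6.65 and 7.77. For AKR7A3 the same arrays read 10.04 and 8.43. For AKR1B10 the first array of CYGB+ replicate 3 read 4.20 with probe A_23_P93641. These are log2 signals, each the lowest of its group.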

How the results depend on the processing

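Another 20 settings were run, of which the signal before dye normalisation and the fit without the array of lowest correlation in each group were chosen after seeing the data. No called result changed sign among the member probes and the genes named from the lists, and the uncalled differences of CYGB, AKR1A1, AKR1B10 and ALDH7A1 fell on either side of 0. Of the 1852 probes called among all, counts were 1232 with no filter on dim probes, 659 with slide as a term, 20 within the second slide, 4819 with arrays as single values under a random block, 679 with the methods' t-test and 3857 without the array of lowest correlation in each group. The 2 called aldo-keto reductase probes became 0 within the second slide, 5 with arrays as single values, 0 with the methods' t-test and 4 without those arrays. The count stayed at 2 with slide as a term and with the value table, but the probes changed. They were AKR1C3 and AKR7A2 with slide as a term, and AKR1C3 and AKR1B1 with the value table. Leaving out 1 replicate gave 374 to 1652 probes in all (374 without NCE replicate 2, 490 without NCE replicate 3, 685 without NCE replicate 1, 873 without CYGB+ replicate 3 and 1145 without CYGB+ replicate 2) and 0 to 3 of the members. There were 0 without NCE replicate 1 or 2 and 1 without NCE replicate 3, while AKR1C1 probe A_24_P152968 stayed between 1.62 and 2.21 and AKR1C3 between 1.27 and 1.63.

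The 8 NRF2 battery genes became 5 with no filter, 5 with slide as a term, 0 within the second slide, 13 with arrays as single values and 4 with the methods' t-test, and 2 to 10 when a replicate was left out. The 3 other carbonyl enzymes became 1 with no filter, 1 with slide as a term, 0 within the second slide, 6 with arrays as single values, 0 with the t-test and 1 before dye normalisation (0 to 2 when a replicate was left out). The 1 steroid enzyme became 2 with percentile scaling, 3 with normexp, 0 with no filter, 3 with probes above background on all arrays, 0 with flagged spots kept, 0 with slide as a term, 0 within the second slide, 6 with arrays as single values, 0 with the t-test, 3 with the value table, 2 before dye normalisation and 5 without the arrays of lowest correlation (0 to 2). The 1 prostaglandin enzyme became 2 with normexp, 0 with no filter, 3 with probes above background on all arrays, 0 within the second slide, 2 without the NCE array of that slide, 3 with arrays as single values, 0 with the t-test and 3 without the arrays of lowest correlation (0 to 1). The 1 retinoid gene became 0 with probes above background on all arrays, 0 with slide as a term, 0 within the second slide, 2 with arrays as single values and 0 with the t-test (0 to 2). Where these counts moved, the cause was not tested, except that fewer replicates or arrays enter some fits.

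With the replicate block, the paired fit, 2507 probes were called in all, the steroid enzymes went to 0 and the prostaglandin enzymes came to 2, AKR1C1 probe A_23_P257971 passed, no other member's call changed, and of the genes named from the lists ALDH2 and SRD5A1 no longer passed. The value table holds neither AKR1C1 nor AKR1B10 probes and gave 1.54 for AKR1C3 (adjusted p = 0.00371). AKR1B10 lies near the background, where a change of less than its interval was not detectable.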
